A study of Danio rerio with 6 samples.

Results

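The transcriptome of wild-type zebrafish larval tails at 3 days post fertilisation (dpf) is described here from 3 poly-A RNA libraries, numbered 1, 2 and 3, out of 6 libraries in the series. All 3 came from larvae that genotyping had sorted as wild type, and the labels name neither a strain nor a treatment. The other 3 libraries came from sirt6 mutant larvae of the same age and enter only a single count at the end. Per the labels, RNA was taken from tail tissue that includes the blood-forming region, and since no label says whether each library had its own pool of larvae, their spread may be technical. Of the 38157 genes in the deposited table, the 25432 annotated as protein-coding were ranked by their mean FPKM. This is a count of fragments divided by gene length and by a scaling value of each library, so that levels can be compared between genes.

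At this age the zebrafish tail is mostly striated muscle packed around the notochord and the neural tube, covered by a thin epidermis that extends into a fin fold stiffened by fibres called actinotrichia. Fast muscle fibres fill the bulk of each myotome, and slow fibres form a layer near the surface. Red cells circulate through the tail vessels, and the caudal haematopoietic tissue below the notochord houses blood stem and progenitor cells. Contractile fibres, ribosomes and mitochondria are built from very abundant proteins, and their transcripts fill much of the RNA of muscle-rich tissue.

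Library 1 stood apart from the other 2. Reads in genes numbered 14655293, 13544132 and 12438359 in libraries 1, 2 and 3. Across the 8859 protein-coding genes that averaged 5 FPKM or more, Pearson's r of log2(FPKM + 0.5) was 0.991 between libraries 2 and 3, 0.943 between libraries 1 and 2 and 0.940 between libraries 1 and 3. These are correlations across genes, which are not independent replicates. A chi-square per degree of freedom is near 1 when 2 libraries differ by counting noise alone. It was taken over protein-coding genes with at least 10 reads in the 2 libraries together, 19722 to 19767 genes by pair. Its value was 2.63 between libraries 2 and 3, 40.9 between libraries 1 and 2 and 42.1 between libraries 1 and 3. Values are therefore given for each library, and the main results are given again without library 1. Summed FPKM over protein-coding genes was 499531, 423405 and 417366 in libraries 1, 2 and 3, so groups of genes are compared as a percentage of that sum in each library.

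The pool was concentrated in few genes. Of the protein-coding genes, 22826 had at least 1 read in at least 1 wild-type library, 16220 had a mean of at least 1 FPKM, 473 had at least 100 FPKM and 52 had at least 1000 FPKM. Of the summed mean FPKM, 161 genes held 50%, and the number was 146, 166 and 167 in libraries 1, 2 and 3 and 167 for the mean without library 1. The 10 highest genes held 20.2% of the sum, the 100 highest held 44.4% and the 1000 highest held 70.2%. Of the 100 highest genes, 85 belonged to at least 1 of 43 lists of tissue and process genes, with 34 cytosolic ribosomal protein genes, 16 fast muscle genes, 12 of the mitochondrial genome and 5 epidermal genes among them.

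The highest gene was pvalb1, which encodes parvalbumin, the calcium buffer that speeds the relaxation of fast muscle fibres. It lies on GRCz11 chromosome 3, positions 61193890 to 61205711, and it had 22317, 12106 and 11921 FPKM in libraries 1, 2 and 3. Library 1 was far above the other 2 for this gene, which lay close together. The second gene, actc1b on chromosome 17, positions 117024 to 125091, encodes a striated muscle actin and had 14414, 12731 and 12341 FPKM, with a mean of 13162 ± 1102 FPKM (SD, n = 3). Its libraries were close, within a log2 range of 0.22, where a range of 1 is a factor of 2.

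Other sarcomere genes followed among the 25 highest nuclear genes. The muscle creatine kinase gene ckmb, which regenerates ATP beside the myofibril, had 5181, 4073 and 4286 FPKM. The myosin light chain gene mylz3 had 6094, 3736 and 3557 FPKM. A second light chain gene, mylpfb, had 3483, 2043 and 1974 FPKM. In all 3 of these genes library 1 was the highest. The calcium pump gene of the sarcoplasmic reticulum, atp2a1, had 2830.2, 3306 and 3313 FPKM and was lowest in library 1. The tropomyosin gene tpma, whose product shields actin from myosin at rest, had 3491, 1595 and 1508 FPKM and was highest there. Genes of the contractile apparatus and its membranes thus differed in which library was highest. The fast myosin heavy chain gene myhz1.1, which encodes the motor itself, was nearly level at 1932, 1783 and 1808 FPKM.

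**Figure D1:**
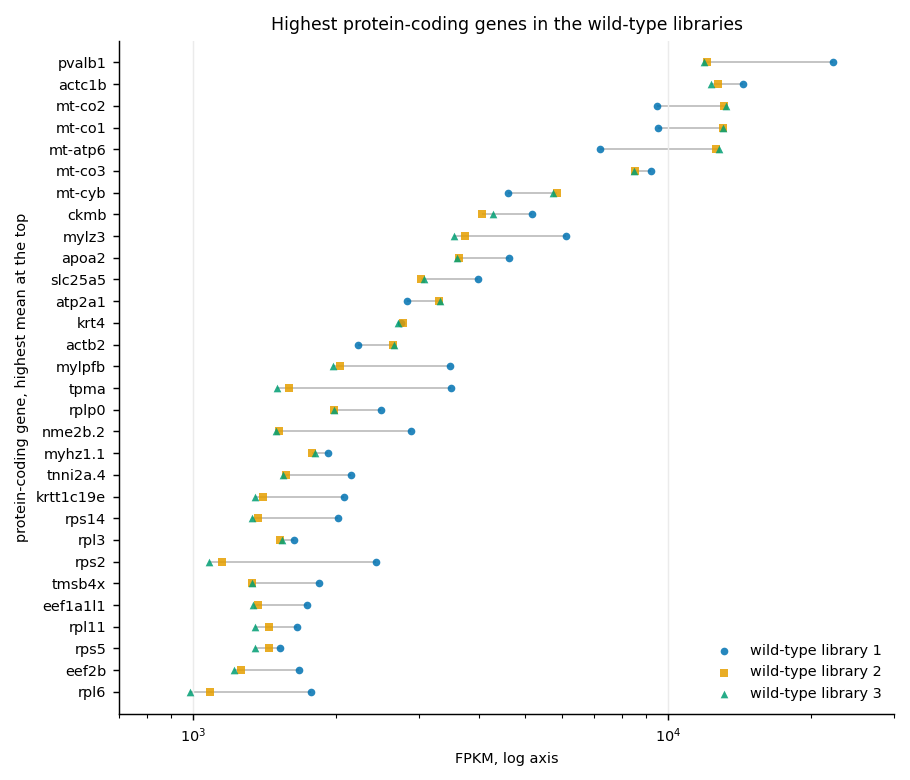
FPKM on a log axis of the 10 highest protein-coding genes and the 25 highest nuclear ones, 1 point per wild-type library and a grey line from the lowest to the highest. Libraries 2 and 3 lie close together in every row, and library 1 is the highest for pvalb1, mylz3, tpma and rps2 and the lowest for mt-co1, mt-co2 and mt-atp6.

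The list of fast skeletal muscle genes, 79 in number, held 14.8%, 12.3% and 12.3% of the summed FPKM in libraries 1, 2 and 3, a mean of 13.1% ± 1.4 (SD, n = 3), or 12.3% without library 1. Of these genes, 73 had at least 1 FPKM and 2 had no read. The list's median was 40.1 FPKM, far below its leading members, so its share rested on few genes. Slow muscle genes held 0.182%, 0.13% and 0.134%, and 13 of the 15 averaged at least 1 FPKM. Their leading gene, the light chain gene myl10, had 368, 194 and 182 FPKM, and the troponin C gene tnnc1b had 234, 92.5 and 92.1 FPKM. Library 1 was the highest in both. The slow myosin heavy chain gene smyhc1 had 55.8, 52.5 and 65.4 FPKM, highest in library 3. Titin, the giant spring of the sarcomere, is encoded by ttn.1, with 17.1, 26.7 and 27.9 FPKM, and ttn.2, with 15.6, 25.8 and 26.1 FPKM. Both titin genes were lowest in library 1.

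Genes of energy supply filled another large part of the pool. The 13 protein-coding genes of the mitochondrial genome, which encode core subunits of the respiratory chain and ATP synthase, held 10.6%, 16.5% and 16.8% of the sum. As a share of reads, not per length, they held 5.2%, 7.56% and 7.65%. By FPKM, library 1 was lowest for 9 of the 13 and highest for 4. The cytochrome oxidase gene mt-co1 had 9536, 13094 and 13078 FPKM, and mt-co2 had 9486, 13167 and 13241 FPKM. The ATP synthase gene mt-atp6 had 7204, 12608 and 12809.8 FPKM. The third oxidase subunit gene, mt-co3, ran the other way with 9207, 8548 and 8483 FPKM. The other genes highest in library 1 were mt-nd3, mt-nd4l and mt-atp8, which are the shortest of the 13, and mt-atp8 was the lowest of all 13 with 152, 136 and 131 FPKM. The largest log2 range among the 13 was 0.92, at mt-nd5 with 1132, 2081 and 2147 FPKM.

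Nuclear genes for respiratory chain and ATP synthase subunits had the opposite order of libraries. Their 99 members held 3.46%, 2.36% and 2.28% of the sum. The catalytic head of ATP synthase is encoded by atp5f1b, with 1583, 986 and 938 FPKM, and atp5fa1, with 1270.1, 847 and 815 FPKM. Library 1 was the highest in both. The adenine nucleotide carrier gene slc25a5, which exchanges ADP and ATP across the inner mitochondrial membrane, had 3996, 3019 and 3076 FPKM. Glycolysis genes were level between libraries as a list, at 0.921%, 0.939% and 0.936%. The glycolytic enzyme genes gapdh, with 592, 555 and 541 FPKM, and aldoab, with 619.6, 508 and 502 FPKM, led them. In FPKM, of its 28 genes that averaged 5 FPKM or more, library 1 was the highest in 26 and the lowest in 2. The summed FPKM was itself highest in library 1, so these counts and the share of the list are on unlike scales. Such counts were not made over all genes tested.

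Protein synthesis took a share below that of fast muscle. The 85 genes of cytosolic ribosomal proteins held 12.6%, 8.92% and 8.64% of the sum, a mean of 10.1% ± 2.23 (SD, n = 3), and had a median level of 376 FPKM, so that here, unlike in muscle, the level was spread over many genes. As a share of reads, not per length, the list held 7.61%, 5.08% and 4.87%, beside 14.2%, 12.5% and 12.6% for fast muscle. The highest ribosomal protein gene was rplp0, a protein of the ribosomal stalk, with 2487, 1989 and 1981 FPKM. Others of the list differed in their spread. The large subunit gene rpl3 had 1636, 1529 and 1543 FPKM, a log2 range of 0.10. The small subunit gene rps2 had 2432, 1153 and 1081 FPKM, a log2 range of 1.17, with library 1 well above the other 2. Translation factors held 1.85%, 1.77% and 1.76%. The elongation factor gene eef1a1l1, which delivers aminoacyl-tRNA to the ribosome, had 1745, 1374 and 1339.6 FPKM, and eef2b, which moves the ribosome along the message, had 1675, 1264 and 1222 FPKM.

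Skin was the second tissue of the tail by share. Epidermal genes held 2.28%, 2.08% and 2.07% of the sum, a mean of 2.14% ± 0.119 (SD, n = 3), and 50 of the 60 averaged at least 1 FPKM. The keratin gene krt4, which marks the outer periderm layer, lies on chromosome 6, positions 39308498 to 39313027, and had 2751, 2769 and 2709 FPKM, within a log2 range of 0.03. The keratin gene krtt1c19e had 2081, 1404 and 1353 FPKM, cyt1 had 1214, 946 and 961 FPKM and cyt1l had 1105, 838 and 808 FPKM. Unlike krt4, these 3 were each highest in library 1. Genes of ionocytes and mucous cells held 0.122%, 0.164% and 0.166%, led by the sodium pump gene atp1a1a.1 at 146, 174 and 177 FPKM.

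Fin fold, connective tissue and axial skeleton each held under 1% of the summed FPKM. Their matrix genes are long, and as a share of reads, not per length, the fibroblast list held a mean of 1.33% and the notochord and cartilage list 0.554%. The actinodin genes encode the fibres that stiffen the larval fin fold, with 557, 661 and 629.8 FPKM for and2, 225, 324 and 327 FPKM for and3 and 156, 173 and 159 FPKM for and1. All 3 were lowest in library 1, and the fin fold list held 0.22%, 0.31% and 0.302% of the sum. Other genes of the list differed in order. Of its 15 genes that averaged 5 FPKM or more, library 1 was the highest in FPKM in 8 and the lowest in 6. Collagen I genes of the fibroblast list were level, with col1a1b at 362, 352 and 357 FPKM and col1a2 at 311, 308 and 314 FPKM, in a list that held 0.491%, 0.597% and 0.595%. Notochord and cartilage genes held 0.278%, 0.293% and 0.307%. The cartilage matrilin gene matn1 had 260.0, 218 and 216 FPKM. The type II collagen gene col2a1a, made by the notochord sheath and by cartilage, had 111, 123 and 133 FPKM. The notochord transcription factor gene tbxta, which is switched on early in the axis, had 2.1, 2.91 and 2.93 FPKM.

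Red cells were read through globins and other genes. Globin genes held 0.31%, 0.221% and 0.207% of the sum, and 9 of the 15 averaged at least 1 FPKM. The embryonic alpha globin gene hbae3 had 781, 439 and 406 FPKM, and the embryonic beta globin gene hbbe1.1 had 290.2, 182 and 174 FPKM. Both were highest in library 1. Globin genes have near-identical copies, so the split of reads between single globin genes is uncertain. Red cell genes other than globins held 0.112%, 0.134% and 0.134% with library 1 lowest as a share. Single genes, ordered by FPKM and so on a scale unlike the share, differed in order. Of the 25 that averaged 5 FPKM or more, library 1 was the highest in 10 and the lowest in 12. Such counts were not made over all genes tested. Their leading gene, rhag, a membrane protein of the red cell, had 94.5, 136 and 129.9 FPKM, and the next, the water channel gene aqp1a.1, had 103, 73.7 and 77 FPKM, highest in library 1. The anion exchanger gene slc4a1a had 21.1, 20.6 and 22.6 FPKM. Globin genes are short, and as a share of reads, not per length, they held a mean of 0.0852%, below the other red cell genes with 0.163%. The erythroid transcription factor gene gata1a had 0.17, 0.794 and 0.373 FPKM, from 5, 23 and 10 reads.

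White cell and progenitor genes were low. Neutrophil genes held 0.169%, 0.163% and 0.157%, but their highest member, cpa5 at 362, 297 and 273 FPKM, is also in the exocrine pancreas list. The next member, cfl1l, had 270, 195 and 181 FPKM. The means of cpa5 and cfl1l were 311 and 215 FPKM, where the whole list summed to 730 FPKM. The list's median was 2.11 FPKM, so its share rested on few genes. The neutrophil peroxidase gene mpx had 11.2, 11.5 and 11.1 FPKM, level over the 3 libraries. Macrophage genes held 0.102%, 0.104% and 0.103%, and apoeb, an apolipoprotein gene that other cells also use, was the highest at 423, 356 and 347 FPKM. The macrophage growth factor receptor gene csf1ra had 4.58, 5.87 and 6.11 FPKM, and the pore-forming protein gene mpeg1.2 had 6.31, 5.46 and 4.89 FPKM. Genes of blood progenitors and lymphoid cells held 0.0287%, 0.0228% and 0.022%, the lowest share of any tail list, and 9 of the 28 averaged at least 1 FPKM. The highest were transcription factor genes that other tissues also use, cebpb with 68.9, 43.2 and 40.4 FPKM and meis1b with 49.6, 31.5 and 29.8 FPKM. Of the transcription factor genes of blood stem cells, gata2a had 6.13, 4.29 and 3.54 FPKM and lmo2 had 4.91, 3.33 and 4.55 FPKM. These 4 were highest in library 1. Lower in level, myb had 1.42, 2.33 and 2.55 FPKM and was lowest in library 1. The gene runx1 had 0.419, 0.554 and 0.458 FPKM, from 13, 17 and 13 reads, too few to order the libraries. In such bulk libraries, fewer cells of a type and less RNA per cell cannot be told apart.

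Vessel, nerve and pigment genes were counted as further parts of the tail. Endothelial genes held 0.0423%, 0.0504% and 0.0500%, and 35 of the 39 averaged at least 1 FPKM. The gene cdh5, for the cadherin of endothelial junctions, had 6.21, 12.2 and 11.8 FPKM, and the VEGF receptor gene kdrl had 8.17, 9.66 and 11.1 FPKM. Both were lowest in library 1, whereas cdh6, the highest of the list, was highest there with 16.7, 14.3 and 14.1 FPKM. Of the 16 endothelial genes that averaged 5 FPKM or more, library 1 was the highest in FPKM in 6 and the lowest in 9, counts not made over all genes tested. Neuronal genes held 0.553%, 0.596% and 0.597%. They were led by the tubulin gene tuba1c with 302, 278 and 262 FPKM, and the neuronal RNA-binding protein gene elavl3 had 50.3, 58.7 and 62.5 FPKM. Genes of glia, myelin and neural progenitors held 0.27%, 0.297% and 0.302%, with the radial glia gene fabp7a at 326, 183 and 187 FPKM. Pigment cells were read through several genes. Of these, tyrp1b of melanin synthesis had 145, 91.8 and 86.7 FPKM, and pmela, the scaffold of the melanosome, had 72.9, 72.9 and 72.2 FPKM. The xanthophore gene gch2, of pteridine synthesis, had 171, 206 and 191 FPKM.

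**Figure D2:**
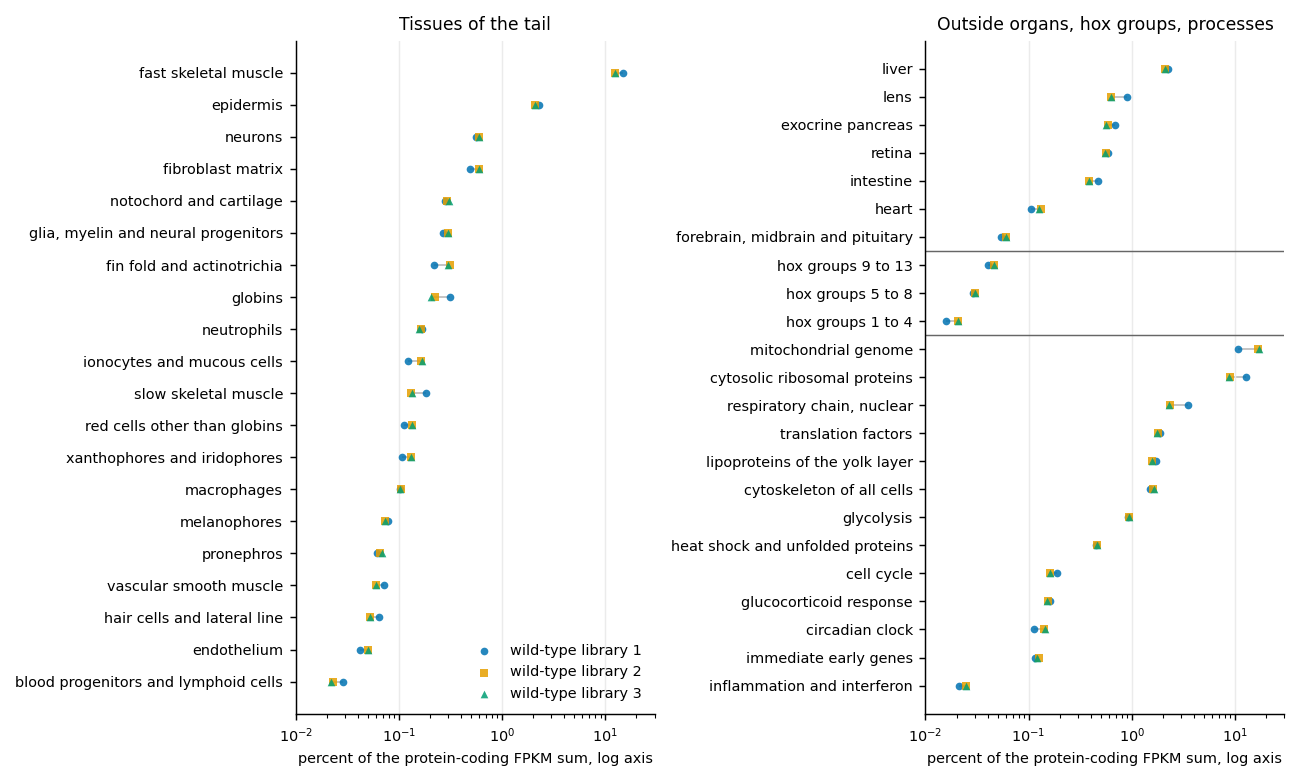
Percentage of the protein-coding FPKM sum held by each gene list, on a log axis, 1 point per wild-type library. Fast skeletal muscle, at 12.3% to 14.8%, leads the tail tissues on the left, and liver, at 2.08% to 2.22%, leads the organs outside the tail on the right. Hox groups and processes are drawn below these organs, an order of position and not of value.

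The libraries also held transcripts of genes that mark organs which do not lie in the tail. The 7 lists of such organs, with 349 genes in all, held 5.01%, 4.43% and 4.39% of the sum in libraries 1, 2 and 3, a mean of 4.61% ± 0.347 (SD, n = 3). Without library 1 the mean was 4.41%. The 20 lists of tail tissues held 20.3%, 17.9% and 17.8%, a mean of 18.7% ± 1.41 (SD, n = 3). Among the lists counted as tail are those of neurons, of glia and neural progenitors, of hair cells and of the pronephros, which do not lie in the tail alone. The source of the organ transcripts, and of the transcripts of these lists, was not tested.

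Liver genes were the largest of these lists, at 2.22%, 2.09% and 2.08%, and 48 of the 53 averaged at least 1 FPKM. They were led by the apolipoprotein gene apoa2, the tenth gene of the whole pool, with 4628, 3642 and 3604 FPKM. Apolipoprotein genes are also used by the yolk syncytial layer, the cell layer that exports yolk lipid, and a list of lipid genes of that layer held 1.69%, 1.56% and 1.57%. Genes for other plasma proteins were also high. The retinol carrier gene rbp4 had 942, 793 and 766 FPKM, and the iron carrier gene tfa had 372, 331 and 327 FPKM. The fetuin gene fetub had 296, 291 and 278 FPKM. The liver fatty acid binding protein gene fabp10a had 491, 181 and 155 FPKM and differed most between libraries among these, with library 1 the highest.

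Digestive genes were present in every library. The trypsin gene prss1, on chromosome 16, positions 25080764 to 25085327, had 1043, 673 and 659 FPKM and ranked 72 among protein-coding genes. The protease gene prss59.1 had 534, 361 and 343 FPKM, and its neighbour in family and name prss59.2 had 515, 382 and 355 FPKM. The exocrine pancreas list held 0.683%, 0.582% and 0.562%, with 28 of 35 genes at 1 FPKM or more. The intestine list held 0.465%, 0.382% and 0.385%, with 32 of 37 genes at 1 FPKM or more. With models on alternate contigs added to their genes the intestine list held 0.85%, 0.566% and 0.554%. In it the apolipoprotein gene apoa4b.1, which is also in the list of lipid genes of the yolk layer, was level at 473, 463 and 463 FPKM. The fatty acid binding protein gene fabp2 of enterocytes had 52.6, 13.3 and 16.4 FPKM.

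Eye genes were at a similar level. Lens genes held 0.897%, 0.632% and 0.625%, with 50 of 76 genes at 1 FPKM or more. The crystallin genes, which fill the lens fibre cells, included crygm2d13 with 529, 263 and 259.7 FPKM and crybb1 with 424, 226 and 212 FPKM. Both were highest in library 1. Retinal genes held 0.586%, 0.561% and 0.552%, with 52 of 67 genes at 1 FPKM or more. The ultraviolet cone opsin gene opn1sw1 was level at 575, 588 and 593 FPKM. The green cone opsin gene opn1mw1 was level too, at 251, 248 and 240.3 FPKM. The rod opsin gene rho had 568, 319.5 and 285 FPKM, highest in library 1. The cone transducin gene gnat2 had 114, 120.3 and 121 FPKM. These opsin and crystallin levels, in FPKM, lay above those of the endothelial genes cdh5 and kdrl. The crystallin gene cryaa, a defining lens marker, lay below both with 1.26, 1.48 and 0.883 FPKM. Its paired model on an alternate contig had 9.17, 6.51 and 4.62 FPKM.

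Heart and forebrain genes were lower. The cardiac myosin light chain gene myl7 had 22.2, 19.5 and 20.4 FPKM in a heart list that held 0.105%, 0.13% and 0.125%, part of it from actin genes shared with skeletal muscle. The forebrain and midbrain list held 0.0539%, 0.0601% and 0.0602%. Its transcription factor gene foxg1a had 6.7, 6.2 and 6.56 FPKM, and otx2b had 13.3, 10.6 and 11.8 FPKM.

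The hox genes give a view of position along the body axis, since paralogue groups with low numbers are expressed from the hindbrain backwards and groups with high numbers only towards the tail. Summed FPKM was 201.7, 197.0 and 194.4 in libraries 1, 2 and 3 for the 23 genes of groups 9 to 13, and all 23 had a mean of at least 1 FPKM. It was 143.1, 126.5 and 127.2 for the 12 genes of groups 5 to 8, and 79.3, 86.5 and 87.0 for the 13 genes of groups 1 to 4. As a percentage of the sum in each library, library 1 was instead the lowest throughout. Groups 9 to 13 held 0.0404%, 0.0465% and 0.0466%, groups 5 to 8 held 0.0286%, 0.0299% and 0.0305%, and groups 1 to 4 held 0.0159%, 0.0204% and 0.0208%. The highest caudal gene was hoxc12a with 28, 21.2 and 18.8 FPKM, followed by hoxb9a with 15.1, 20.4 and 22.2 FPKM. Of group 13, hoxc13a had 13.5, 12.7 and 12.5 FPKM, hoxa13b had 4.44, 2.43 and 3.54 FPKM and hoxd13a had 1.65, 1.5 and 1.34 FPKM. The highest gene of groups 1 to 4 was hoxc3a with 11.3, 17.6 and 16.5 FPKM. Its span on chromosome 23, positions 36087219 to 36149371, contains hoxc9a, hoxc8a, hoxc6a and hoxc4a. Which of these genes its reads came from was not tested. On chromosome 3, hoxb4a had 11.9, 11.9 and 11.1 FPKM, so that hox genes of the anterior groups were present beside the caudal ones.

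Several markers that define tail tissues were at or near 0 in their own row of the table. The fast light chain gene mylpfa had 0.14, 0 and 0 FPKM, the basal keratin gene krt5 had 1.48, 0.879 and 0.539 FPKM and the troponin C gene tnnc2 had 1.12, 2.46 and 1.99 FPKM. The red cell gene alas2, the first enzyme of haem synthesis in erythroid cells, had 0 reads in all 3 libraries, and a count of 0 allows up to 0.0725, 0.0734 and 0.0793 FPKM in libraries 1, 2 and 3, a limit that covers counting error only. The neutrophil gene lyz had 0.83, 0.96 and 0 FPKM and the macrophage gene mpeg1.1 had 0.543, 0.302 and 0.356 FPKM. The table also holds 3772 models on alternate contigs, which are second versions of some genome regions, and none of these models has a symbol or a protein-coding label.

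Models on alternate contigs with the same best protein match had high values where several such genes were low. Of the 3772 models, 2799 could be paired with a protein-coding gene of the same chromosome number and the same protein match within 200 kb. In 573 pairs the model had a mean of at least 5 FPKM. In 183 of these it was at least 10 times as high as its gene, and in 128 the gene was higher than the model. The model paired with mylpfa had 702, 1014 and 1053 FPKM, the one paired with krt5 had 295, 267 and 247 FPKM, and the one paired with tnnc2 had 221, 124 and 122 FPKM. A model annotated as Parvalbumin-2 had 3157, 1242 and 1737 FPKM in libraries 1, 2 and 3, while the paired gene pvalb2 had 4.42, 1.59 and 0.596 FPKM.

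The same held beyond muscle and skin. The model paired with alas2 had 4.02, 2.99 and 2.85 FPKM and the one paired with apoa1a, annotated as Apolipoprotein A-I, had 2026, 840.0 and 773 FPKM. The model paired with the ribosomal protein gene rpl10 had 1075, 959 and 892 FPKM, and the gene itself had 6.31, 12.4 and 4.03 FPKM. The model paired with rpl32 had 965, 796 and 740.4 FPKM, and the gene itself had 0.139, 0 and 0 FPKM. Genes of outside organs were among them, with 308, 307 and 171 FPKM for the model paired with the chymotrypsin gene ctrb1 and 0.112, 0.151 and 0.653 FPKM for the gene. The keratin gene krt4 differed, since it was higher than its paired model, which had 1353, 1471 and 1443 FPKM. With each model added to its gene, fast muscle held 14.9%, 12.3% and 12.4% of the sum and epidermis 2.53%, 2.42% and 2.4%. The intestine list, which holds apoa1a, moved from 0.465%, 0.382% and 0.385% to 0.85%, 0.566% and 0.554%, most in library 1. The models were left out of the ranking above, and where the reads of a paired region were assigned was not tested.

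**Figure D3:**
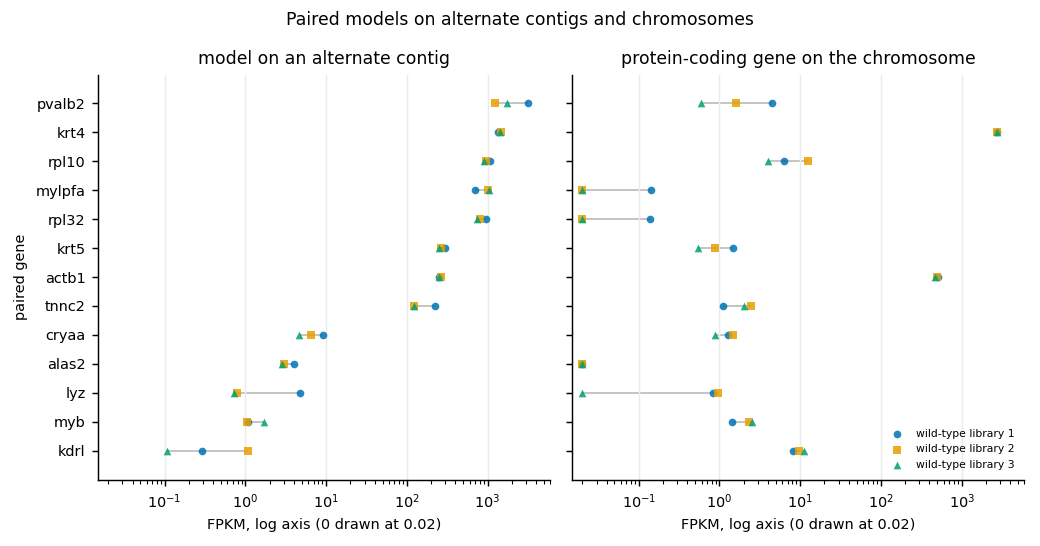
FPKM on log axes of models on alternate contigs, on the left, and of their paired protein-coding genes, on the right, 1 point per wild-type library, with 0 drawn at 0.02. For mylpfa, rpl32, krt5, tnnc2, rpl10, pvalb2 and alas2 the model is the higher of the pair, and for krt4, actb1 and kdrl the gene is.

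The libraries were next compared gene by gene. The range of a gene was taken as its highest minus its lowest log2(FPKM + 0.5) over the 3 libraries, for the 8859 genes averaging 5 FPKM or more. The median range was 0.37, and 6568 genes, or 74.1%, lay within a factor of 1.5. A range of at least 1 was found for 578 genes, or 6.52% of those tested, with 209 genes just below it between 0.9 and 1 and 162 just above it between 1 and 1.1. Library 1 was the highest in 499 of the 578, or 5.63% of the genes tested, and the lowest in 69, or 0.779% of the genes tested. In the remaining 10, libraries 2 and 3 were at the ends. Of the 499, 81 passed the minimum of 5 FPKM only through library 1, since libraries 2 and 3 averaged less. With the minimum set on libraries 2 and 3 alone, which has the opposite bias, 515 of 8764 genes had such a range, with library 1 highest in 418 and lowest in 86. Between libraries 2 and 3 alone, 18 of the 8859 genes differed by at least 1, against 424 between libraries 1 and 2 and 486 between libraries 1 and 3.

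Variable genes highest in library 1 were short. They had a median length of 1065 bases and those with library 1 lowest 2542 bases, beside 2370 bases for all genes tested. In the shortest decile, up to 1002 bases, 27.3% of genes had a range of at least 1, and in the longest decile 1.58% had. The median deviation of library 1 from the mean of the 3 libraries, on the log2 scale, was 0.29 in the shortest decile and -0.14 in the longest. In library 2 it was -0.14 in the shortest decile and 0.06 in the longest, and in library 3 it was -0.18 and 0.09. Spearman's rho between length and deviation across the 8859 genes was -0.39 in library 1, 0.32 in library 2 and 0.37 in library 3, given as a description, since the 3 deviations of a gene sum to 0. The part of length in the variation was not tested.

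**Figure D4:**
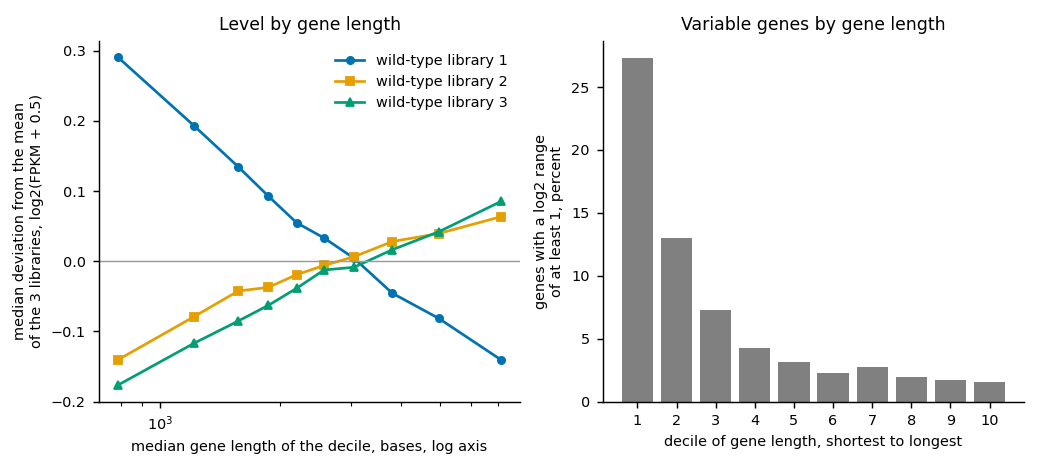
Median deviation of each wild-type library from the mean of the 3, in log2(FPKM + 0.5), against the median gene length of 10 deciles on a log axis (left), and percentage of genes with a log2 range of at least 1 in each decile (right). Library 1 falls with length where libraries 2 and 3 rise, and variable genes are most frequent in the shortest decile, at 27.3%.

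The 30 genes of largest range included genes of the lens, the ribosome and the mitochondrion. The largest range, 4.17, was that of crybgx, a crystallin gene, with 15.6, 0.394 and 0.959 FPKM in libraries 1, 2 and 3, from 160, 4 and 9 reads. This gene passed the minimum only through library 1. The ribosomal protein gene rpl36a followed with 128, 11 and 7.98 FPKM. Further down, rpl35a had 220.0, 28.9 and 30.4 FPKM and rps28 had 319, 43.6 and 42.9 FPKM. Library 1 was high and the other 2 low and close together in each of these ribosomal protein genes. Reads can be split between similar copies of a gene, which was not tested for them. The complex III gene uqcr10 had 107, 18.8 and 16.6 FPKM. The ATP synthase inhibitor gene atp5if1a had 143, 22.6 and 22.6 FPKM, and cox17, a copper chaperone gene of cytochrome oxidase, had 24.4, 4.52 and 5.67 FPKM. The abundant gene icn, of the S100 family, had 616, 145 and 139 FPKM, and the smooth muscle gene tagln had 118, 26 and 27.3 FPKM. Library 1 was the highest in 25 of the 30 and the lowest in 2, and the ranges ran down to 2.02. Of those 25, 11 passed the minimum only through library 1, so the count describes these 30 and is no sign of the order among genes at large.

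A few genes did not follow this order. The gene hint1, which encodes a nucleotide hydrolase, had 4.69, 48.9 and 40.5 FPKM. The RNA polymerase subunit gene polr1d had 1.5, 10.1 and 5.4 FPKM. Library 1 was the lowest in both. A pair of respiratory chain genes differed between libraries 2 and 3, as uqcrq had 9.41, 1.36 and 18.5 FPKM and ndufa1 had 9.27, 2.17 and 10.3 FPKM, with library 2 the lowest. The secreted cartilage gene mia had 2.51, 2.39 and 14.2 FPKM, high in library 3 alone. Of the 30 genes, 6 kept a range of at least 1 without library 1.

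**Figure D5:**
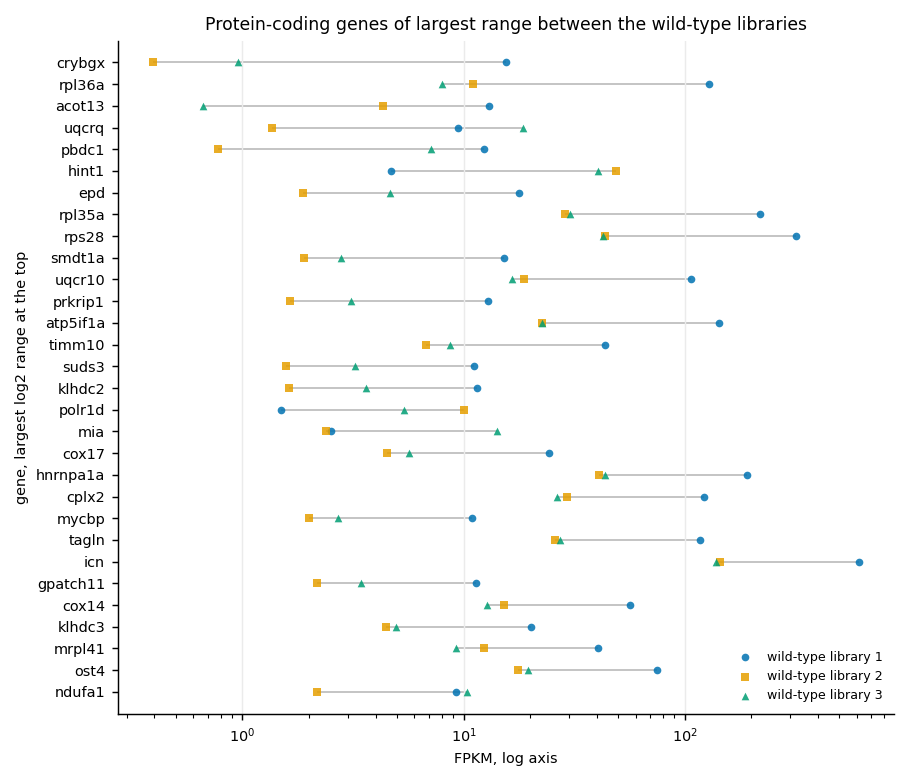
FPKM on a log axis of the 30 protein-coding genes of largest log2 range, 1 point per wild-type library and a grey line from the lowest to the highest. Library 1 is the highest in 25 of the 30, and hint1 and polr1d have library 1 as the lowest.

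Several long genes had library 1 as the lowest. Of those given here, apobb.1, muc5.1 and idh1 were named after their values were seen, so they are no sign of the order among long genes at large. In the longest decile 1.58% of genes had a range of at least 1. The gene apobb.1, which encodes the apolipoprotein B of lipid export and is 12857 bases long, had 193, 479.5 and 488 FPKM. The mucin gene muc5.1, 16267 bases long, had 5.25, 12.5 and 13.9 FPKM. The isocitrate dehydrogenase gene idh1, 4322 bases long, had 3.67, 10.3 and 9.99 FPKM. The gene apoa1b, 4200 bases long and in the same lipid list as apobb.1, ran the other way, with 1211, 539 and 536 FPKM and library 1 the highest.

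By gene list, variation was uneven. A range of at least 1 was found for 39 of the 81 ribosomal protein genes tested and for 42 of the 84 nuclear respiratory chain genes, beside 6.52% of all genes tested. Between libraries 2 and 3, without library 1, 1 of the 81 and 2 of the 84 differed by at least 1. Over all 3 libraries, 14 of the 40 lens genes tested had such a range. So did 4 of the 12 slow muscle genes, 2 of the 8 globin genes and 5 of the 25 intestine genes. Fast muscle, with 4 of 68, and epidermis, with 3 of 45, lay near the share of all genes tested. None of the 16 endothelial genes had such a range. The median length was 1095 bases in the lens list and 2830 bases in the endothelial list, and the part of length was not tested. Ribosomal protein genes stood high in library 1 at each length, with a median deviation of 0.65 on the log2 scale for 28 genes under 1000 bases, 0.59 for 38 genes of 1000 to 2000 bases and 0.56 for 15 longer ones. Nuclear respiratory chain genes had 0.72, 0.48 and 0.41 in the same classes. Genes outside the ribosomal protein and respiratory lists had 0.26, 0.13 and -0.03. Counts of variable respiratory chain genes fell with length. By class, 29 of 40, 12 of 33 and 1 of 11 of them had a range of at least 1. Of genes outside both lists, 195 of 811, 190 of 2554 and 112 of 5329 had such a range, so short genes varied more there too. The share of a list differed by at least 1.5 times between libraries for the mitochondrial genome and for the nuclear respiratory chain, by 1.58 times and 1.52 times.

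At the other end, some genes were nearly identical in all 3 libraries as deposited, although after quantile normalization the 10 of smallest range reached ranges of up to 0.59. Among genes averaging 50 FPKM or more, the smallest range was 0.01, that of pmela. The chaperone gene hsp90ab1 had 559.7, 553 and 549.9 FPKM, the myosin heavy chain gene myhz1.3 had 342, 345 and 348 FPKM and the collagen gene col1a2 had 311, 308 and 314 FPKM. At a lower level, the clock gene cry1a, a light-responsive repressor in zebrafish, had 37.8, 37.5 and 37.3 FPKM. Genes level in all 3 libraries thus included ones of muscle, matrix, pigment cells and the clock.

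The mutant libraries were used for 1 count, to see whether the genes variable in wild type also vary within another group. Over the same 8859 genes, 259, or 2.92%, had a range of at least 1 between the 3 mutant libraries. Of the 578 genes variable in wild type, 40, or 6.92%, had such a range between the mutant libraries, and of the other genes tested 2.64% had.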

How the data were processed

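Per the labels, RNA from the tails of genotyped 3 dpf larvae was extracted with TRIzol, selected for poly-A tails and turned into libraries (Novogene kit). The submitters' processing notes name the GRCz11 build and the tools HISAT2 2.0.5, featureCounts, FastQC and DESeq2. Which annotation release was used, and whether counting used strand, is not given here, so reads of a gene and of its antisense partner cannot be told apart. Values are FPKM per gene as the authors deposited them, with each gene's length, position and biotype in the same table. No column of values per sample was unused (0).

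Multiplied by gene length, each deposited FPKM above 0 came out as whole reads within 1e-06 for 100% of the values, which gave the reads per gene. In libraries 1, 2 and 3, 1 read per kb stood for 0.0715, 0.0724 and 0.0782 FPKM. These values are not in inverse proportion to reads in genes, so the divisor was not reads in genes alone. How the divisor was set is not given, and its part in the order of libraries was not tested. Reads that map to more than 1 copy of a gene may be split or lost, and no source used here says how they were counted. Means, SDs, shares and ranges of log2(FPKM + 0.5) over the 3 wild-type libraries were computed with Python 3.11.15, pandas 2.3.3, numpy 2.4.6 and scipy 1.17.1, and figures with matplotlib 3.10.9. The added 0.5 makes the ranges of low genes smaller. With 1 group there is no contrast, so no test was run and no p-value is given. The range and chi-square steps were tested on simulated data.

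The members and the 43 gene lists were chosen with earlier results of these data known. Genes named were the 10 highest, the 25 highest nuclear ones, up to 4 of highest mean in each list, the 30 of largest and 10 of smallest range, up to 3 of largest range in each list whose share differed by at least 1.5 times between libraries, and defining markers of tissues. Clone-named genes were passed over in the ranges. The other genes of the mitochondrial genome and apobb.1, ttn.1, ttn.2, idh1, muc5.1, pvalb2, tnnc2, gata1a, slc4a1a, csf1ra, mpeg1.2, tfa, fetub, elavl3, apoa1a, rpl10, rpl32, ctrb1 and rps20 were named after their values were seen. Gene symbols are those of the deposited table. No sequences are shown.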

Additional observations from a re-analysis of the deposited data

Results flagged for a closer look

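Signal outside the ranked protein-coding genes was looked for in the remaining models of the table, which have no control samples here, and each value below lies above what a count of 0 allows. On alternate contigs, 662 models had a mean of at least 5 FPKM in the wild-type libraries. The models paired with muscle genes averaged 2045 FPKM for pvalb2, 923.4 FPKM for mylpfa and 156 FPKM for tnnc2. The model paired with krt5 averaged 269.7 FPKM and the one paired with alas2 averaged 3.29 FPKM.

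The gene rps20, which encodes a protein of the small ribosomal subunit, is annotated as a processed transcript in the table and so lies outside the ranking. It averaged 1647 FPKM, with 2523, 1243 and 1175 FPKM in libraries 1, 2 and 3. Groups of 3 libraries were too small for a check of single samples against their group.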

How the results depend on the processing

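The limits of these values are few libraries, 1 of which stands apart, and a table in which some genes have a second model on an alternate contig. Without library 1, the count of genes with a log2 range of at least 1 was 15, and leaving out each library in turn gave counts from 15 to 506. It was 1126 with a minimum mean of 1 FPKM, 1503 with none and 246 with 20 FPKM, settings that change how many genes enter, and between 459 and 637 under other pseudocounts, scalings, a minimum of reads and with contig models added. Library 1 was the highest most often, in 458 of 546 genes after median-of-ratios scaling and in 325 of 459 after quantile normalization. The median-of-ratios factors were 1.01, 0.999 and 0.996 in libraries 1, 2 and 3, so that scaling could change little. The number of genes holding 50% of the sum was 469 as a share of reads, not per length, and 284 without the mitochondrial genome. Without that genome the fast muscle share was 15.4% and the share of organs outside the tail 5.40%. The last share was 4.23% of all genes in the table and 2.48% without the liver list, an alternative chosen after seeing the data, as were the contig sums and the minimum set on libraries 2 and 3. Of the 25 highest nuclear genes, 18 were shared when ranked by reads and 23 to 25 under the other settings run. Of 378 shares of other lists, 104 moved by more than 1 SD of the 3 libraries, 37 of them as a share of reads and 36 without the mitochondrial genome. All 30 genes of largest range kept a range of at least 1 under other pseudocounts and scalings, and 6 did without library 1. No paired analysis was possible because a single group was described and no test was run. Levels rest on 12438359 to 14655293 reads in genes per library. Genes averaging under 5 FPKM were left out of the counts of ranges unless another minimum is stated. Orders of libraries given for some of them describe single genes only.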

Other observations

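Stress and clock genes were measured but belong to none of the tissues above. Heat shock and unfolded protein genes held 0.447%, 0.455% and 0.454% of the summed FPKM in libraries 1, 2 and 3, with the chaperone gene hspa5 of the endoplasmic reticulum at 227, 130.1 and 129 FPKM, highest in library 1. The rapidly induced immediate early genes held 0.115%, 0.124% and 0.122%, and jun had 59.8, 33 and 31.5 FPKM. Genes of the glucocorticoid response held 0.159%, 0.153% and 0.15%, led by pck1, an enzyme of glucose synthesis, at 221, 126 and 121 FPKM. Circadian clock genes held 0.112%, 0.14% and 0.142%, with tefa at 45.4, 68.8 and 67.6 FPKM and bhlhe40 at 65.5, 67.2 and 66.8 FPKM. Of the 25 clock genes tested, 0 had a log2 range of at least 1, beside 6.52% of all genes tested. The clock list had a median length of 3101 bases, and in the decile of 2803 to 3371 bases 2.71% of genes had such a range.

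Proliferation and immune genes were also described by list. Cell cycle genes held 0.189%, 0.161% and 0.159%, with the replication clamp gene pcna at 147, 137 and 138 FPKM and the helicase gene mcm7 at 50.2, 25.4 and 26.8 FPKM, the second highest in library 1. Inflammation and interferon genes held 0.0212%, 0.0249% and 0.0246% and were led by stat1a, a transcription factor of interferon signalling, at 14.6, 26.3 and 25.2 FPKM. Pronephros genes held 0.0609%, 0.0656% and 0.0678%, with the cadherin gene cdh17 of the kidney duct at 60.2, 68.3 and 70.5 FPKM. Genes of hair cells and the lateral line held 0.0638%, 0.053% and 0.0524%, led by pvalb8, a parvalbumin gene of hair cells and neurons, at 129, 97.4 and 95.4 FPKM.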
